A study of Mus musculus with 43 samples.

Results

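Non-dysplastic colonic epithelium was compared between mice given folic acid (FA) above the standard dose and mice kept at the standard dose. The comparison was made between 13 of the 43 DNA methylation libraries of the series, all of the first cohort: 6 libraries of mice on 8 mg FA per kg of chow (8ND) and 7 of mice on 2 mg FA per kg (2ND), each from a different mouse. Set beside them are 5 first-cohort libraries without dietary FA (0 mg FA, 0ND) and 6 second-cohort libraries on 8 mg FA. Their values at called sites, and those of the second cohort also at uncalled sites, are given. Neither set is a group in a test. In an alternative the 0ND libraries were used to sort sites by level. All were female Swiss Webster mice, an outbred stock, and no group carried an engineered allele. Every mouse, whatever its diet, had been injected with the colon carcinogen azoxymethane (AOM) at 7 weeks of age and had colitis from dextran sulfate sodium (DSS), which was started at 9 weeks and given as 4 rounds of 2% DSS for 7 days, with 14 days of plain water after each. The diets were assigned at random at 11 weeks, after the first DSS round and on a background of 2 mg FA, and were fed for 16 weeks until 27 weeks of age. Epithelium was cut by laser from formalin-fixed, paraffin-embedded sections, so each library averaged many crypts and whatever other cells lay within the cut. The files hold no expression values of these libraries, so the label of epithelium was not checked against marker genes. A CpG site was compared when every one of the 13 libraries had at least 20 reads there, which left 13704 of 173449 listed sites (7.90%). The study reported repeat and unique sequences separately, with most of its changes in repeats. Sites were not assigned to these classes here, so the results below do not tell them apart.

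Folate carries the methyl groups that the cell passes to methionine and S-adenosylmethionine, the donor used by DNA methyltransferases, and this is why a change of dietary FA is asked about in terms of DNA methylation. In mouse tissue most CpGs in dense clusters near gene starts are unmethylated, most isolated CpGs are methylated, and intermediate levels are found where cells or the 2 alleles differ. In females 1 X chromosome is silenced in each cell and its CpG clusters become methylated, so many X sites have intermediate levels.

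Methylation was measured by DREAM, in which DNA is cut within CCCGGG first by SmaI, which a methylated CpG blocks, and then by XmaI, which cuts the methylated copies and leaves a different end. The share of reads with the second end is the raw methylation percentage of a site. The authors also gave an adjusted percentage, obtained with DNA standards spiked into every sample, and this is the value used below unless raw is written. The adjustment scaled the odds of methylation by a factor particular to each library, between 1.94 and 3.33 in 8ND and between 1.24 and 3.81 in 2ND. Reads on sites numbered 1488920 to 13319841 in 8ND and 3636528 to 11687772 in 2ND. Mice are named here by the label of their first-cohort library. Mouse LC1844 (8ND) had the shallowest library, with a median of 73 reads per compared site against 178 to 674 in the other 12. In mice LC1841 and LC1858 (8ND), 44.8% and 48.3% of reads came from the standards, against at most 12.6% in the other libraries. Results that rest on these 3 libraries are given with and without them.

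The standards were spiked into every sample, so the groups can be set side by side at them as well. Whether 1 preparation of the standards was used throughout is not given in the sources used here. Their adjusted percentages had also been scaled with these same standards. Over 18 standard sites, each with at least 2050 reads, the adjusted difference of 8ND minus 2ND ran from -7.34 to 3.69 percentage points, with a median size of 1.56 points. At the second site of the standard Sla374, methylation was 61.4% ± 3.05 (SD, n = 6) in 8ND and 68.7% ± 2.95 (SD, n = 7) in 2ND, and this site met the criteria of a called site described below. The Luc standard was higher in 8ND, with 29.2% ± 2.14 against 25.6% ± 0.751 at its first site, and the groups did not overlap at either Luc site. In all, 7 of the 18 standard sites had a two-sided exact permutation p under 0.05 (0.000583 for both Luc sites, the smallest that 1716 assignments of 13 libraries allow). The raw differences of the standards lay between -11.6 and 0.552 points. The part of these differences in the site results was not tested.

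Few sites were called between the doses. The study's criteria were used to call a site, namely a group difference above 5 percentage points together with p under 0.05, without adjustment, in a two-sided test of the group means that assumed equal variances. By this rule 233 of 13704 sites were called, 1.70% of those tested (95% Wilson interval 1.497 to 1.93). Of these, 139 were lower in 8ND (1.01% of sites tested) and 94 were higher (0.686%). The called sites lay at 207 places more than 1000 bases apart. After Benjamini-Hochberg adjustment 0 sites passed 0.05 (smallest adjusted p 0.846), with 402 sites at an unadjusted p under 0.05 (2.93%). Adjusted values from limma, from an exact permutation test per site and from a quasi-binomial model of the read counts also left 0 sites, with 432, 400 and 1581 at an unadjusted p under 0.05.

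Called differences were moderate in size. Their median size was 9.71 points, and they reached -25.1 points downward and 18.8 points upward. The 139 sites lower in 8ND had a median of 26.2% in 8ND and 40.8% in 2ND, and the 94 higher sites a median of 49.3% in 8ND and 36.1% in 2ND. Over all compared sites the median difference was 0, since most sites were near 0% on either diet. Differences above 10 points were found at 202 sites, 135 lower and 67 higher in 8ND, of which 107 were called. Those above 15 points and called numbered 35.

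**Figure D1:**
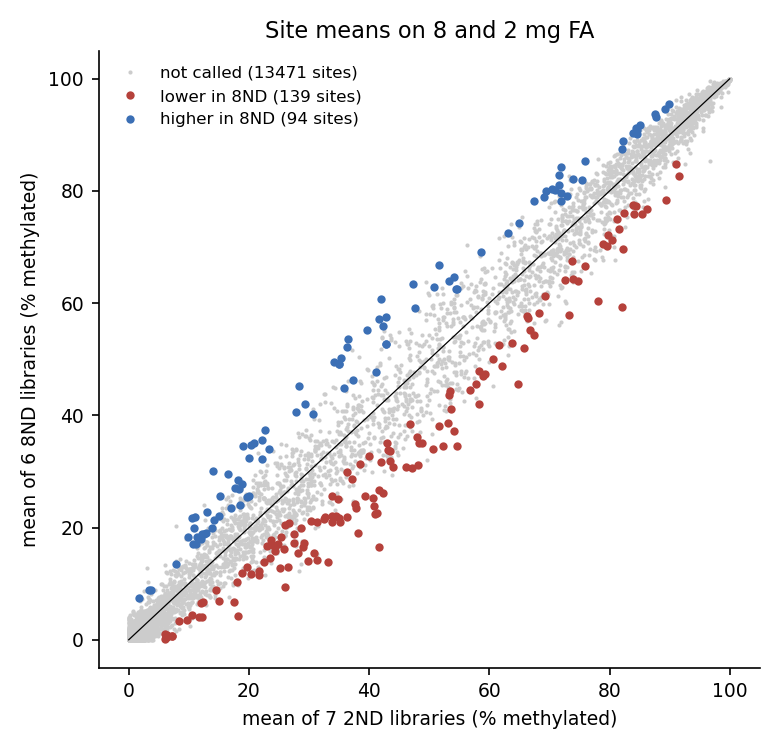
Mean adjusted methylation of each of the 13704 compared sites in the 6 8ND libraries (vertical, %) against the mean in the 7 2ND libraries (horizontal, %), with sites lower in 8ND in red, sites higher in 8ND in blue, the rest in grey and the line of equal values in black. The 139 sites below and the 94 sites above the line are spread over the middle of the range and are rare at either end.

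The direction of the called sites rested on the libraries and on the unit. Of the 233, 59.7% were lower in 8ND (95% Wilson interval 53.3 to 65.7, which treats sites as independent although neighbours and libraries are shared). In the raw percentages a similar number was called, 221 sites, but 215 of them (97.3%) were lower, and 105 sites were called in both units. Without mice LC1841 and LC1858, 338 sites were called and 104 of them (30.8%) were lower. Leaving out mouse LC1858 alone gave 126 of 278 lower (45.3%), leaving out mouse LC1841 gave 112 of 236 (47.5%), and leaving out mouse LC1844 gave 91 of 173 (52.6%). The share rose to 72.9% without mouse LC1848 of 8ND (164 of 225), to 72.2% without mouse LC1832 of 2ND and to 68.5% without mouse LC1830 of 8ND. In the quasi-binomial model, which weights a library by its reads, 95 of 260 called sites (36.5%) were lower. Called sites were therefore mixed in direction, and neither direction prevailed under all of these settings.

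**Figure D2:**
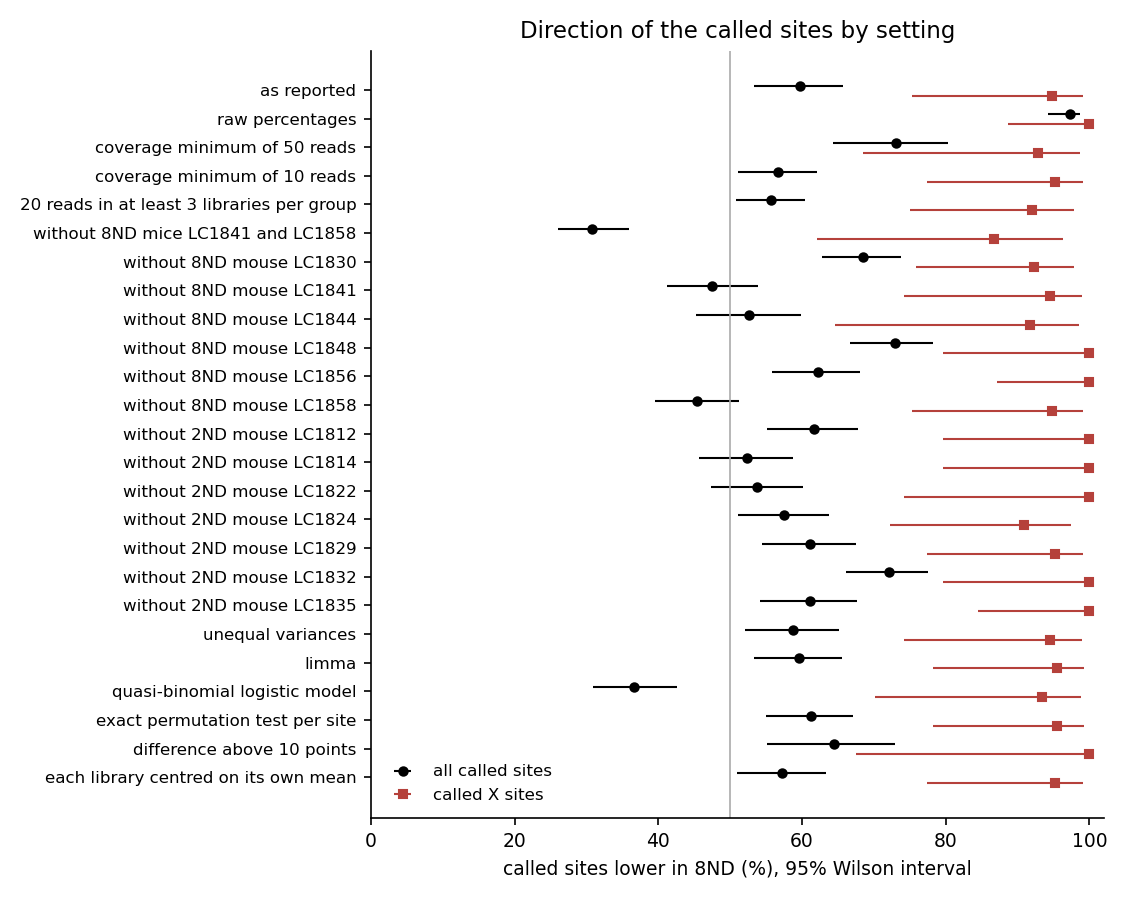
Share of called sites that were lower in 8ND (horizontal, %) under each setting, for all called sites (black circles) and for called sites on the X chromosome (red squares), with 95% Wilson intervals as bars. The share over all sites runs from 30.8% without mice LC1841 and LC1858 to 97.3% in raw percentages and crosses 50%, while the share on the X chromosome is 86.7% or more in each setting drawn.

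Calls were concentrated at intermediate levels, which the criteria in part fix. A difference above 5 points has little room at sites near either end of the range. Sites were put into 5 classes by the mean of the 2 group means. Among 10112 sites under 5%, 7 were called (0.0692%), and among 1001 sites at 80% and over, 20 were called (2.00%). In between, 41 of 803 sites at 5 to under 20% (5.11%), 127 of 1185 at 20 to under 60% (10.7%) and 38 of 603 at 60 to under 80% (6.30%) were called. The spread between mice was also widest in the middle: the median standard error of a site's difference was 4.88 points at 20 to under 60% and 0.129 points under 5%. The 127 called sites at 20 to under 60% were 80 lower and 47 higher in 8ND, and the 20 called sites at 80% and over were 8 lower and 12 higher.

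No shift of a level class as a whole was shown, though the intervals below do not exclude shifts of a few points. At 20 to under 60% the library means were 36.8% ± 3.39 (SD, n = 6) in 8ND and 38.0% ± 2.00 (SD, n = 7) in 2ND. The difference was -1.19 points (95% interval -4.66 to 2.15, two-sided exact permutation p = 0.431), and it ran from -2.28 to -0.528 points when each mouse was left out in turn. The raw percentages differed by -3.72 points (exact permutation p = 0.277). The 8ND libraries lay between 33.5 and 42.2% and spanned the 2ND libraries, which lay between 34.2 and 39.4%. The other classes differed by -0.0189 points under 5%, by -0.440 at 5 to under 20%, by -0.881 at 60 to under 80% and by 0.331 at 80% and over, with exact permutation p-values of 0.614 or more. The widest interval, at 60 to under 80%, ran from -4.72 to 3.00 points, and there the raw difference was -4.27 points (exact permutation p = 0.329). Of all compared sites, 13052 (95.2%) were in the same class on either diet, 374 were in a lower class in 8ND and 278 in a higher one. That share is carried largely by the 10112 sites under 5% (73.8% of compared sites), which have little room to change class. Moves among the other sites alone were not counted. Of the called sites, 64 went to a lower and 38 to a higher class, including 28 that went from 20 to under 60% to below 20%.

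**Figure D3:**
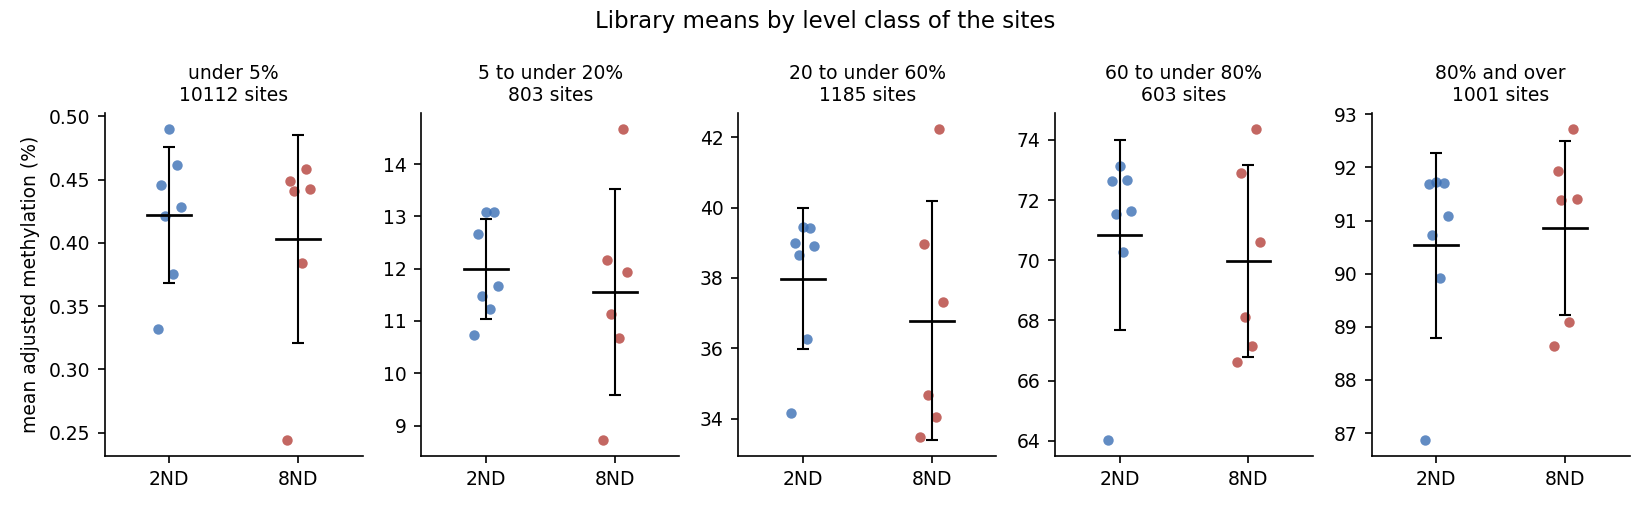
Mean adjusted methylation (vertical, %, a different range in each panel) over the sites of each level class, with 1 point per library, the group mean as a line and the SD as bars. In each of the 5 classes the 8ND points overlap the 2ND points, and at 20 to under 60% the means were 36.8% in 8ND and 38.0% in 2ND.

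Over all 13704 sites the mean was 13.9% ± 0.662 (SD, n = 6) in 8ND, with libraries from 13.3 to 14.9%, and 14.0% ± 0.442 (SD, n = 7) in 2ND, with libraries from 13.1 to 14.5%. The interval of the difference was -0.846 to 0.533 points (exact permutation p = 0.608). When each mouse was left out in turn the difference ran from -0.360 points without LC1848 to -0.0351 points without LC1844, and it was 0.102 points without both LC1841 and LC1858. The raw percentages differed by -0.705 points (exact permutation p = 0.330), larger than the adjusted one, and the interval above holds for the adjusted percentages.

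Mice on 8 mg FA were not shown to be more variable among themselves. The median SD of a site between mice was 0.412 points in 8ND and 0.393 points in 2ND (exact permutation p = 0.727). At 20 to under 60% it was 8.96 and 7.93 points (exact permutation p = 0.294), and without mouse LC1844 the 8ND value was 7.93 points as well. As whole profiles, libraries of different diets were slightly farther apart than libraries of the same diet, with a root mean square distance per site of 5.65 against 5.44 points. The excess of 0.208 points had a one-sided exact permutation p of 0.0239. It fell to 0.118 points without mouse LC1844 (exact permutation p = 0.133), which stood apart with a mean distance of 7.05 points to the other libraries, against 5.06 to 5.88 for the other 12. In raw percentages the excess was 0.117 points (exact permutation p = 0.238).

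Sets of sites of different density differed in their rate of calls, but also in their level, which was not held constant. No shift of their means was shown. Among 7316 sites with at least 2 other listed CCCGGG sites within 500 bases, the mean level was 5.01% in 8ND and 5.08% in 2ND, and 37 sites (0.506%) were called. Among 6313 sites with 1 other site in that window, the means were 23.9 and 24.1%, and 191 sites (3.03%) were called. The 75 sites with none held 5 calls. The mean differences of these sets were -0.0683, -0.266 and 0.308 points, with exact permutation p-values of 0.591 or more.

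Called sites mostly shared their direction with a neighbour. Compared sites formed 7927 neighbouring pairs within 1000 bases, with a median spacing of 171 bases. Of the 201 pairs with at least 1 called site, both sites differed in the same direction in 163 (81.1%), and in the 23 pairs with both sites called the direction was shared in all 23. Over all 7927 pairs it was shared in 3014 (38.0%), while at least 1 site of the pair had a difference of exactly 0 in 2766, and among 314 pairs of uncalled sites at 20 to under 60% it was shared in 211 (67.2%). The ends of a DREAM fragment lie at neighbouring sites and are read from the same molecules, so such pairs are not independent measurements. Runs of called sites in 1 direction numbered 25 outside chromosome 18, of 2 called sites each, with 18 lower and 7 higher in 8ND.

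The X chromosome had the highest rate of calls of any chromosome. Of 243 compared X sites 19 were called (7.82%, Wilson interval 5.06 to 11.9), and 18 of the 19 were lower in 8ND. On the autosomes 214 of 13461 sites were called (1.59%), 121 of them lower (56.5%), and the rate ran from 0.241% on chromosome 16 to 3.14% on chromosome 12. The X chromosome also had more sites at intermediate levels, with 129 of its 243 sites at 20 to under 60%, against 1056 of 13461 on the autosomes. Within that class 14 of 129 X sites (10.9%) and 113 of 1056 autosomal sites (10.7%) were called. All 14 called X sites of the class were lower in 8ND, against 66 of 113 called autosomal sites (58.4%). Over all sites of the class the contrast was smaller, with a lower mean in 8ND at 96 of 129 X sites (74.4%) and at 581 of 1056 autosomal sites (55.0%). The library means of the class differed by -3.17 points on the X chromosome (exact permutation p = 0.0594) and by -0.947 points on the autosomes (exact permutation p = 0.585). Sites of 1 library share its level, so the counts carry no test, and X against autosomal levels is tested per library below.

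The 18 lower X sites fell by 5.43 to 15.7 points, with medians of 17.1% in 8ND and 27.0% in 2ND, and the 19 called X sites lay at 16 places. At position 7419427 of the X chromosome methylation was 14.0% ± 4.46 (SD, n = 6) in 8ND and 29.8% ± 7.04 (SD, n = 7) in 2ND, and 254 bases on, at position 7419681, it was 25.7% ± 9.09 and 39.4% ± 10.7. At position 68618474 it was 15.4% ± 7.74 and 30.8% ± 10.7, with as few as 20 reads in a library. The exception, at position 8775128, had 19.9% ± 4.60 in 8ND and 13.8% ± 5.13 in 2ND. Most called X sites were lower in 8ND also under settings that moved the share over all sites. Without mice LC1841 and LC1858, 13 of 15 called X sites were lower, in the quasi-binomial model 14 of 15, and without mouse LC1844, 11 of 12. In raw percentages 30 of 30 were lower, but in that unit so were 215 of the 221 called sites over all chromosomes.

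Averaged over all 243 X sites, however, the diets could not be separated. The mean was 31.8% ± 2.09 (SD, n = 6) in 8ND and 34.1% ± 2.18 (SD, n = 7) in 2ND. The 8ND libraries lay between 27.9 and 33.4% and the 2ND libraries between 31.5 and 37.2%, so 8ND included the lowest and 2ND the highest values, and the ranges overlapped. The difference was -2.39 points (95% interval -5.08 to 0.230, exact permutation p = 0.0775, 0.998 after Benjamini-Hochberg adjustment over 20 chromosomes). The lowest library was the shallow one of mouse LC1844, and without it the difference was -1.62 points (exact permutation p = 0.170). With a minimum of 50 reads per site the difference was -3.21 points (exact permutation p = 0.0425), and without mouse LC1835 of 2ND it was -2.84 points (exact permutation p = 0.0390), both before adjustment over chromosomes. After the mean of autosomal sites of the same level classes was subtracted, it was -1.81 points (exact permutation p = 0.189). On the autosomes the chromosome means differed by -0.404 to 0.273 points, the smallest exact permutation p being 0.209.

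**Figure D4:**
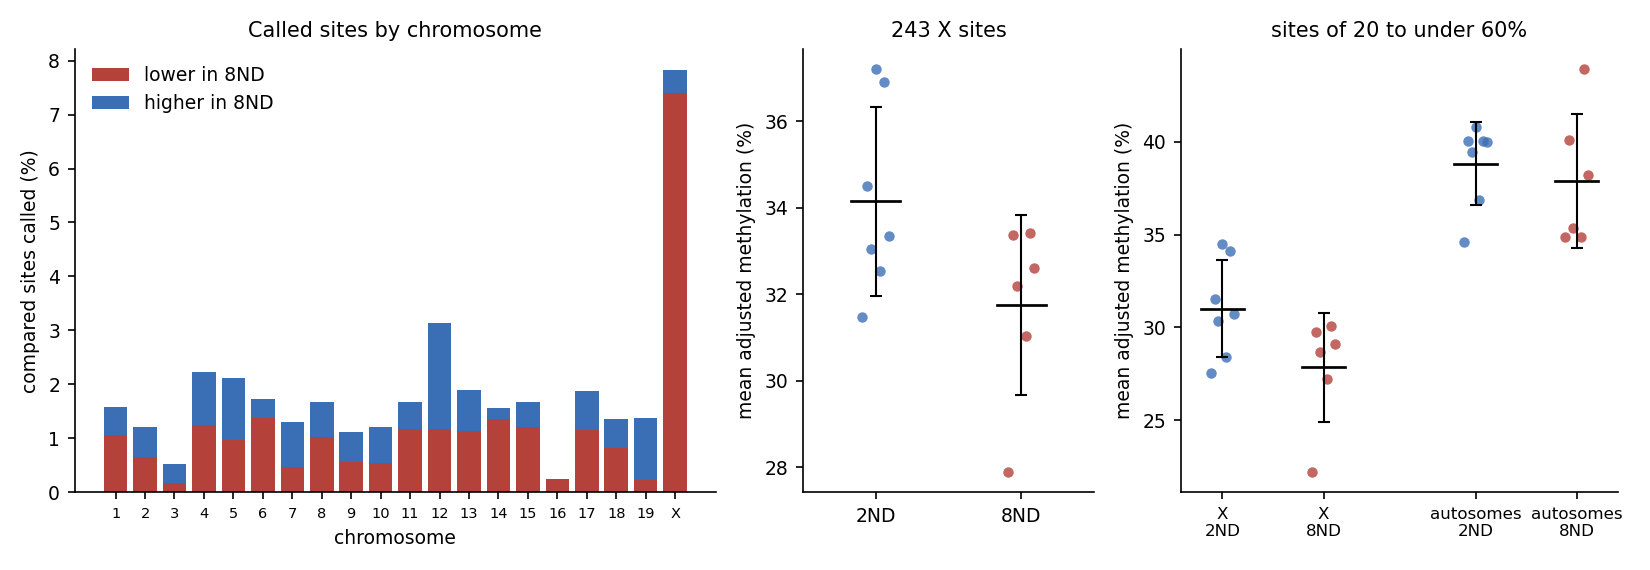
Left, share of compared sites called on each chromosome (vertical, %), lower in 8ND in red and higher in blue. Middle and right, mean adjusted methylation (vertical, %) with 1 point per library, the group mean as a line and the SD as bars, over the 243 X sites and over the X and autosomal sites at 20 to under 60%. The X bar reaches 7.82% and is almost entirely red, and the lowest X value, 27.9%, is that of mouse LC1844.

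The ranges of the groups did not overlap at 15 sites (0.109% of sites tested), of which 13 were called, 9 lower and 4 higher in 8ND. None of these lay on the X chromosome. The sites named here are the 5 lower called sites with the largest differences, and the 3 higher ones outside chromosome 18. They were selected for separation and size in adjusted percentages, so their values are a description and carry no test. In raw percentages the ranges stayed apart at position 36313638 of chromosome 5 and position 78724776 of chromosome 15. At the other named sites the raw ranges overlapped, as at position 83796864 of chromosome 4, with 1.12 to 7.78% in 8ND and 5.56 to 43.1% in 2ND. Positions are those of build mm9. The annotation used here is of a later build, so genes were not assigned to them and no flanking sequence is printed.

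The largest difference was on chromosome 5 at position 36313638. The 8ND libraries had 6.96, 21.0, 20.3, 25.7, 9.34 and 16.0% (in the order LC1830, LC1841, LC1844, LC1848, LC1856 and LC1858). The 2ND libraries had 40.4, 40.2, 46.5, 32.1, 33.0, 34.4 and 64.7% (in the order LC1812, LC1814, LC1822, LC1824, LC1829, LC1832 and LC1835). The means were 16.5% ± 7.24 (SD, n = 6) and 41.6% ± 11.4 (SD, n = 7), from 36 to 226 reads per library. The 5 0ND libraries overlapped both groups, from 14.5 to 42.6%. The neighbouring site at position 36313533 was also called, with 21.7% ± 6.03 in 8ND and 34.9% ± 8.65 in 2ND, and there the lowest 2ND library (19.4%) lay within the 8ND range.

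On chromosome 4 at position 83796864, methylation was 2.41 to 16.5% in 8ND and 16.97 to 48.6% in 2ND, with means of 9.47% ± 5.61 and 26.1% ± 11.3. The highest 2ND value, of mouse LC1824, stood apart from the next, 30.1%. On chromosome 15 a pair of called sites separated the groups at either end. At position 78724776 the 8ND libraries lay between 20.1 and 36.4% and the 2ND libraries between 36.6 and 53.5%, with means of 30.8% ± 5.95 and 46.1% ± 7.22. At position 78724918, 142 bases on, they lay between 17.5 and 28.5% and between 30.0 and 45.5%. The gap between the groups was under 2 points at either site, so separation rested on single libraries. On chromosome 14 at position 65970706 the ranges were 14.4 to 31.1% in 8ND and 31.7 to 47.6% in 2ND.

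The 3 named sites higher in 8ND differed by 5.38 to 15.3 points. On chromosome 19 at position 56820622, methylation was 41.9 to 58.8% in 8ND and 26.7 to 39.6% in 2ND, with means of 49.4% ± 7.24 and 34.1% ± 4.50. In raw percentages that difference was 8.42 points, against 15.3 points adjusted. On chromosome 8 at position 124721000 the ranges were 22.7 to 30.9% in 8ND and 11.9 to 22.5% in 2ND, and the raw difference was 1.10 points against 5.79 points adjusted. On chromosome 1 at position 157378789 methylation was high on either diet, at 91.8 to 94.4% in 8ND and 82.6 to 91.2% in 2ND.

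**Figure D5:**
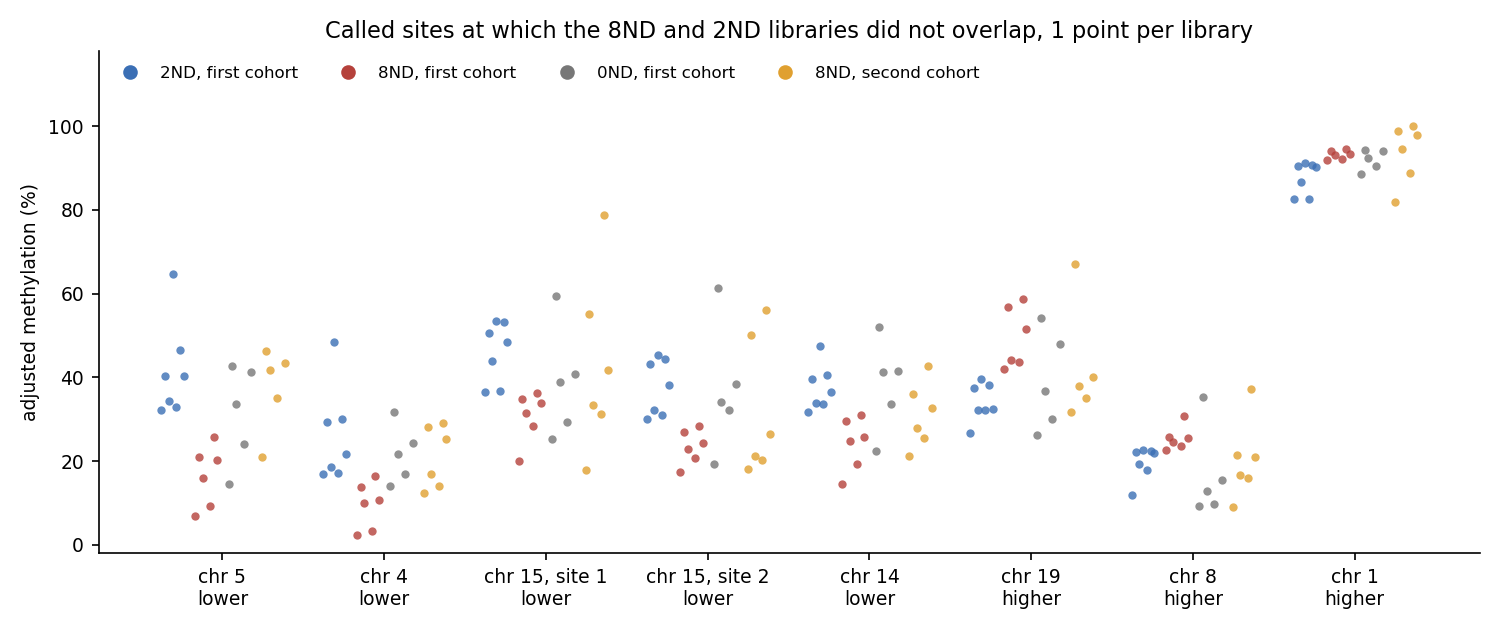
Adjusted methylation (vertical, %) of each library at the 8 named sites, 1 point per library, for 2ND (blue), 8ND (red) and 0ND (grey) of the first cohort and 8ND of the second cohort (yellow). By selection the red and blue points do not overlap at any of the sites. Grey and yellow points reach over both, as on chromosome 5 where 8ND of the second cohort has a mean of 37.5%. Raw percentages are not drawn, and in them the ranges of 8ND and 2ND overlap except at the chromosome 5 site and the first chromosome 15 site.

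Among the runs of called sites, the 5 with the largest mean difference were all lower in 8ND, the fifth by a mean of -15.82 points. The next, on chromosome 17 at 34276643 to 34276847, was higher by a mean of 15.81 points, and runs on chromosome 5 were higher by 14.6 and 12.1 points. Besides the pair on chromosome 5 named above, the 5 lower runs lay on chromosome 4 at 76956128 to 76956294, on chromosome 11 at 43431612 to 43431763 and at 11429151 to 11429416, and on chromosome 2 at 43594367 to 43594671. In the chromosome 2 run 8ND was narrow and 2ND wide: 28.5 to 39.6% against 37.6 to 73.4% at the first site, and 30.0 to 38.3% against 37.6 to 63.8% at the second. In the chromosome 4 run mouse LC1844 had 24.6% at the first site, where the other 8ND libraries had 52.1 to 78.4% and 2ND had 71.7 to 91.6%, and the difference of -22.6 points was -15.7 points without that mouse. In the chromosome 11 run at 43431612 to 43431763, which held 3 compared sites, the outer ones were called (differences of -19.3 and -17.7 points). The middle one, at position 43431719, with 12.3% ± 10.9 in 8ND and 28.3% ± 15.2 in 2ND, was not.

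Of the 6 mice on 8 mg FA, 5 had a further library of non-dysplastic epithelium in the second cohort, so the called sites were measured again in libraries that had no part in their selection. The labels give the tissue of both libraries alike, but the study also describes microdissected samples that include the lamina propria, and whether the second libraries are of that kind is not given in the sources used here. The cohorts are separate sets of libraries, each library adjusted with its own factor (1.06 to 1.97 in 8ND of the second cohort, with up to 47.2% of reads on the standards), so levels across them are set side by side without a test. Over the called lower sites with at least 20 reads, mouse LC1841 had a mean of 32.7% in its first library and 30.3% in its second (136 sites), mouse LC1848 had 34.8 and 32.3% (121 sites), and mouse LC1830 had 39.1 and 31.9% (99 sites). In these 3 mice the second library differed from the 2ND mean of the same sites by -11.4 to -14.1 points. The 2ND libraries took part in selecting these sites, so a gap to their mean is partly fixed by the selection. Mouse LC1856 went from 33.6 to 41.2% (139 sites) and mouse LC1858 from 33.7 to 43.6% (112 sites), which left them at -2.81 and -0.671 points from the 2ND mean.

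The same mice differed between their libraries at sites that were not called. At uncalled sites of 20 to under 60%, means went from 42.9 to 35.5% in mouse LC1848, from 38.7 to 33.9% in mouse LC1830 and from 34.3 to 33.6% in mouse LC1841, and from 37.7 to 40.8% in mouse LC1856 and from 34.7 to 40.3% in mouse LC1858. At these uncalled sites the second libraries differed from the 2ND mean by -3.75 points in LC1830, -4.37 in LC1841, -2.54 in LC1848, 2.78 in LC1856 and 2.35 in LC1858. At the called higher sites (65 to 93 sites per mouse) the second libraries had a mean of 47.0% ± 3.66 (SD, n = 5), against 49.8% ± 3.31 in the first libraries and 40.8% in 2ND. These second libraries differed from the 2ND mean by 2.70 points in LC1830, 11.4 in LC1841, 6.61 in LC1848, 4.84 in LC1856 and 5.53 in LC1858. Here too the 2ND libraries took part in selecting the sites, so the gap is partly fixed by the selection. At the lower X sites (12 to 18 sites per mouse) the mean was 27.5% ± 6.56 in the second libraries, 20.9% ± 1.69 in the first and 30.2% in 2ND. There the second libraries differed from the 2ND mean by 3.42 points in LC1830, -5.31 in LC1841, -12.0 in LC1848, -2.81 in LC1856 and 3.36 in LC1858. At the chromosome 5 site named first, mouse LC1841 had 21.0% in both libraries, whereas mouse LC1856 had 9.34% and then 46.4%, and mouse LC1858 had 16.0% and then 43.5%.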

How the data were processed

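DREAM libraries of 6 8ND and 7 2ND mice of the first cohort were compared, with diet and mouse taken from the sample labels. The authors mapped reads with Bowtie2 and SAMtools (per the labels, versions not given in the sources used here, build mm9) and deposited, for each CCCGGG site, read counts of either kind, the resulting raw percent and a percent adjusted with spiked standards. The adjusted percent was checked to follow from the raw one by 1 odds factor per library, within 0.0240 points. The paper's text names the human genome for mapping, while sites carry mm9 positions.

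Sites with 20 or more reads in every library were compared by the paper's criteria, a difference over 5 points with p under 0.05, unadjusted, in an equal-variance two-sided test. Equal variances and the read minimum were chosen here. For library means, an exact two-sided permutation test over 1716 assignments was used, inverted for 95% intervals. Wilson intervals cover counting error only. Python 3.11.15, numpy 2.4.6, scipy 1.17.1, pandas 2.3.3, R 4.3.3 and limma 3.58.1 were used. The equal-variance test, limma and the quasi-binomial model were run first on simulated data, while the other per-site tests were not. Named sites were the 5 largest differences in each direction among called sites without overlap, and the 5 longest runs within 1000 bases, ties by mean difference, outside chromosome 18. The comparison, classes and alternatives were chosen with earlier results of these data known. Alternatives were other read minimums, raw percentages, other tests, library centring, pooled reads, classes set by 0ND, and leaving out libraries.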

Additional observations from a re-analysis of the deposited data

Results flagged for a closer look

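In 62 sets of 6 or 7 library values (means, classes, library measures and named sites, per diet), the highest or lowest library was compared with its neighbour. In 7 sets a library lay farther away than the 95% limit of Dixon's test, which chance passes in about 1 in 20 independent sets. Many sets share libraries and sites, so these 7 sets are not independent. Mouse LC1832 of 2ND was the lowest in 5 of them: 13.1% over all sites (next 13.9%), 64.0% at sites of 60 to under 80% (next 70.3%), 86.9% at 80% and over (next 89.9%), 34.0% at sites with no other site within 500 bases (next 36.9%) and 22.4% at sites with 1 other (next 23.9%). Mouse LC1844 of 8ND had 0.244% at sites under 5%, below the next value of 0.384%. At position 83796864 of chromosome 4, mouse LC1824 of 2ND had 48.6%, above the next value of 30.1%.

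The standards, with which every library was adjusted but which were not among the compared sites, differed between 8ND and 2ND at 7 of 18 sites with a two-sided exact permutation p under 0.05. The differences were 3.53 and 3.69 points at the Luc sites, 0.286 and 0.281 points at the T324 sites, -3.65 and -4.19 points at the first and second Sla341 sites, and -7.34 points at the second Sla374 site.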

How the results depend on the processing

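No paired analysis was possible because the 8ND and 2ND groups share no mouse number. Under the alternatives that do not leave out a mouse singly, 67 of the values that answer a comparison were unchanged. A further 18 reversed direction, 5 moved, 3 became weaker and 1 stronger, and these are given here. Tested differences counted as unchanged if they kept direction and side of the threshold. Counts of called sites had to stay within a fixed ratio of the main count, and shares within its Wilson interval. The cause of each change was not tested. In raw percentages 97.3% of called sites were lower in 8ND, the mean differences were -1.10 points at 80% and over and -1.22 points at sites with no other within 500 bases, the spread difference was -0.0329 points and the distance between diets 0.117 points. With at least 50 reads, 73.0% of called sites were lower, sites with no other within 500 bases differed by -0.489 points and X sites by -3.21 points. Without LC1841 and LC1858, 30.8% were lower, the mean difference was 0.102 points over all sites, 0.0216 at 20 to under 60%, 0.654 at 60 to under 80% and 0.209 at sites with 1 other, the spread difference was -0.105 points and the distance 0.410 points (exact permutation p = 0.0515). Without LC1844 and with sites chosen again on the other 12 libraries, an alternative added after seeing the data, 51.9% were lower, the differences were 0.00740 points under 5%, 0.175 at 5 to under 20%, -0.548 at sites with no other and 0.0254 at sites with 2 or more others, the spread difference was -0.00250 points and the distance 0.165 points. The quasi-binomial model left 36.5% lower. Benjamini-Hochberg adjustment left 0% of sites called, and a minimum difference of 10 points 0.781%. Reads pooled within groups gave a mean difference of 0.253 points, and classes set by the 0ND libraries one of 0.0477 points at 5 to under 20%.

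Leaving out each mouse in turn, the share lower ran from 45.3 to 72.9%, the X difference from -2.84 to -1.62 points, the distance from 0.118 to 0.350 points and the spread difference from -0.0532 to 0.0857 points. The class differences ran from -0.0339 to 0.0129 points under 5%, from -1.07 to 0.125 at 5 to under 20% and from -0.280 to 0.776 at 80% and over, and those by spacing from -0.278 to 0.677 points with no other site and from -0.133 to 0.0130 with 2 or more. The distance lost its one-sided exact permutation p under 0.05 in 7 of the 13, LC1844 and 6 of the 2ND mice. The number of called sites ran from 173 to 278, and that of called X sites from 11 to 26.

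Depth limits the report to 7.90% of listed sites, and at 20 reads in a library a site's percentage moves in steps of several points. Methylation of sites outside this set was not compared. X sites called were 12 of 243 without LC1844 and 11 of 243 without LC1822, against 19 with all libraries.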
